A study of Homo sapiens with 20 samples.

Results

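The genes that set parental RPMI-8226 apart from the other parental myeloma lines of the study were described from RNA sequencing. RPMI-8226, AMO1 and L363 are established human myeloma cell lines, each grown from the malignant plasma cells of 1 patient. Wild-type (WT) cells of each line, which carried no drug selection, were sequenced in 2 biological replicates, so the comparison rested on 6 of the 20 libraries of the series. The comparison covered 11555 autosomal genes of the 18305 in the table, those whose mean reached 1 FPKM in any of the 3 WT groups. FPKM counts sequenced fragments per kilobase of transcript, scaled to the mapped fragments of the library, and so is a level corrected for transcript length. For each gene the mean of the 2 RPMI-8226 WT libraries was set against the average of the AMO1 WT and L363 WT means on the log2(FPKM + 1) scale, on which differences of low genes are understated. The bortezomib-resistant (BtzR) cells of the same 3 lines, also in 2 replicates each and maintained in 90 nM bortezomib, gave 6 further libraries in which the same difference between lines could be read again. The remaining libraries, from carfilzomib-resistant (CfzR) AMO1 and L363 cells kept in 90 nM drug and from the WT and BtzR cells of ARH-77, were not compared but lent their replicate spread to the test. The 2 libraries labelled AMO1 CfzR correlated at 0.988 to 0.989 with L363 WT and at 0.861 to 0.867 with AMO1 WT, and the counts without them are given with the alternatives. Since every group was 1 line, its genotype, culture history and patient of origin could not be told apart.

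MAF is a transcription factor of the basic leucine zipper type that binds Maf recognition elements. In myeloma it is among the oncogenes that rearrangements bring under immunoglobulin enhancers, beside CCND1, NSD2, FGFR3 and MYC, and RPMI-8226 is known as a line with a MAF rearrangement at the immunoglobulin lambda locus. Genes known to respond to MAF in myeloma include ITGB7, an integrin chain for adhesion to stroma, CCND2, the chemokine receptors CCR1 and CX3CR1, and SPP1, which encodes osteopontin. CDKN2C encodes p18INK4c, an inhibitor of CDK4 and CDK6, and is a gene that myeloma can lose from the short arm of chromosome 1.

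The promoters of 6 genes on which the comparison turned are printed here, since MAF, SPP1, CX3CR1 and ITGB7 were called higher in RPMI-8226 WT than in both other lines and CDKN2C and FAF1 were at or near 0 in it. Each window holds 250 bases before and 50 after a transcription start in RefSeq on GRCh38.p14 and is written 5′ to 3′ on the strand of the gene. In the first 4 windows capitals mark the motif TGCTGA, with which the full Maf recognition element begins, or its reverse complement TCAGCA. The MAF window lay at chr16:79600688-79600987 on the minus strand and the SPP1 window at chr4:87975464-87975763 on the plus strand. The CX3CR1 window lay at chr3:39280392-39280691 on the minus strand and is the only 1 of 3 listed for that gene to hold the motif. The ITGB7 window lay at chr12:53207202-53207501 on the minus strand.
MAF: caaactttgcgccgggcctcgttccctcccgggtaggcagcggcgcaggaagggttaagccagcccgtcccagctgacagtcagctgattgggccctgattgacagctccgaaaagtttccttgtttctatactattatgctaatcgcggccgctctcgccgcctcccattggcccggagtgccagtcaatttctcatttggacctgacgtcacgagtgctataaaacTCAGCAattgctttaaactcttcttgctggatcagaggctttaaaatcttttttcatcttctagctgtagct
SPP1: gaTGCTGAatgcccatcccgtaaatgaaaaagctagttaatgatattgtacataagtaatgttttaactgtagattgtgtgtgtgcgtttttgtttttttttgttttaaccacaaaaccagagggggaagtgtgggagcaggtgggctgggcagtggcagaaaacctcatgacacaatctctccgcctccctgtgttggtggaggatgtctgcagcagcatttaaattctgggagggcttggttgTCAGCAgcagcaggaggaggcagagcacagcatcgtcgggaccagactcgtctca
CX3CR1: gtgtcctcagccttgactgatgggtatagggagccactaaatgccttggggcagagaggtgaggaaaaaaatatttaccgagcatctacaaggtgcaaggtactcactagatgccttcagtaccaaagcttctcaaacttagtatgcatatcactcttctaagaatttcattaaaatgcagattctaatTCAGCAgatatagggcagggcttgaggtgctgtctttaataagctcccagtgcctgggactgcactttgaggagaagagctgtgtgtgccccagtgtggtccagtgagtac
ITGB7: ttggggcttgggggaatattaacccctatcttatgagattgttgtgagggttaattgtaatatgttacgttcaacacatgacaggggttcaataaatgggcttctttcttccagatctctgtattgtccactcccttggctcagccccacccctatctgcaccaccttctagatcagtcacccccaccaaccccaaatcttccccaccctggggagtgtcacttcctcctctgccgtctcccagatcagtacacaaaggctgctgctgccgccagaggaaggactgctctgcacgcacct
The motif was found once in the MAF and CX3CR1 windows, 2 times in the SPP1 window and not in the ITGB7 window. RefSeq windows were listed for MAF and 7 of the 11 MAF target genes named later, 14 in all. Of these, 5 windows of 4 genes held the motif. The fourth gene was RND3, with 2 overlapping windows, and the windows of CCR1, NTRK2 and NUAK1 held none. Of all 13872 windows of tested genes, 13.4% held it on either strand, and none held the full palindromic element. A match describes the letters of a window and not a site that MAF occupies.

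CDKN2C and FAF1 are neighbors on chromosome 1 that are read in opposite directions. FAF1 had 1 window listed and CDKN2C 3, and the CDKN2C window printed is the 1 that overlaps the FAF1 window. Capitals mark the 23 bases that both share, on opposite strands. The CDKN2C window lay at chr1:50960495-50960794 on the plus strand and the FAF1 window at chr1:50960218-50960517 on the minus strand.
CDKN2C: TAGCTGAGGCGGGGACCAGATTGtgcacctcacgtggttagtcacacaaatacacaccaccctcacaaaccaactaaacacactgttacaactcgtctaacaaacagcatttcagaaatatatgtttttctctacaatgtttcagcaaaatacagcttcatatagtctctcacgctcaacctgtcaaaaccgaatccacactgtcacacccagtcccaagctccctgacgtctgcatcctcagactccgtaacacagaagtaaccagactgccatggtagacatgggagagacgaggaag
FAF1: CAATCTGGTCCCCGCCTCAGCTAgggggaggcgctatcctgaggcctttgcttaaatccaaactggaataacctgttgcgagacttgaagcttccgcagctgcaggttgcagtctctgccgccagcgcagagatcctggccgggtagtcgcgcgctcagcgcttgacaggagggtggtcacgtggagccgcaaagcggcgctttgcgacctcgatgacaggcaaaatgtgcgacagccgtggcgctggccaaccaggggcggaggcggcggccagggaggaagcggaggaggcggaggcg

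The 2 RPMI-8226 WT libraries correlated with each other at r = 0.996 across the tested genes, and r was 0.994 for AMO1 WT and 0.998 for L363 WT. The FPKM of the 6 libraries summed to between 463477 and 494850, and between 10515 and 10955 genes reached 1 FPKM. Read counts were not used here, so the depth was unknown. The table lists 10 autosomal genes at exactly 0 in some library although they reached 20 FPKM in at least 14 others, so a 0 is given here as listed and not as absence. A gene was called where the limma test gave a Benjamini-Hochberg adjusted p under 0.05 and the log2 difference was at least 1 in size.

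Of the tested genes, 1245 were called higher in RPMI-8226 WT than in the average of the other 2 lines, which is 10.8%, and 1110 were called lower, which is 9.61%. Against AMO1 WT alone 11.8% were called in each direction, and against L363 WT alone 12.2% were higher and 11.4% lower. Of the 1245, 833 were also called higher against each line on its own, 178 against AMO1 WT only and 234 against L363 WT only. Of the 1110, 565 were called lower against both lines, 278 against AMO1 WT only and 267 against L363 WT only. The genes called against both lines were 7.21% of the tested genes for the higher and 4.89% for the lower direction. For scale, AMO1 WT and L363 WT differed from each other by 2059 called genes, 9.81% higher in AMO1 WT and 8.01% lower. Both RPMI-8226 WT libraries lay above all 4 others for 27.1% of the tested genes and below them for 32.5%, and with a call as well for 10.2% and 8.34%. The median log2 difference over all tested genes was -0.09.

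The largest differences came from genes near 0 in 1 arm of the comparison. FN1, which encodes the matrix glycoprotein fibronectin, stood at 3005 and 3821 FPKM in the RPMI-8226 WT libraries, at 0.22 and 0.18 in AMO1 WT and at 0.26 and 0.35 in L363 WT. Its log2 difference was the largest of all tested genes, at 11.40 (SE 0.31, limma adjusted p = 7.77e-14). ACTL8, an actin-like gene, stood at 449.7 and 366 FPKM in RPMI-8226 WT and at no more than 0.7 in the others. IGFBP3, a binding protein of insulin-like growth factors, stood at 276 and 261 FPKM against no more than 0.06, a log2 difference of 8.04. These genes were picked from those without overlap between the RPMI-8226 WT libraries and those of AMO1 WT and L363 WT. Their separation follows from that choice and is not a separate result.

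The remaining genes among the 12 highest held secreted, membrane and calcium-binding proteins. AZGP1, a secreted zinc-binding glycoprotein, had a log2 difference of 7.61, and MAL, a membrane raft protein of T cells and epithelia, of 6.81. PVALB, the calcium buffer parvalbumin, stood at 146 and 152 FPKM against at most 1.07 in L363 WT. APP, the amyloid precursor protein, stood at 116 and 115 FPKM against at most 0.51. CD8B, which encodes a chain of the CD8 coreceptor of T cells, stood at 289.8 and 263 FPKM, at 8.24 and 8.2 in L363 WT and was listed at 0 in both AMO1 WT libraries, while CD8A stood at only 2 and 2.22 in RPMI-8226 WT. C2orf54 and IGSF10 completed the group with log2 differences of 6.68 and 6.18.

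**Figure D1:**
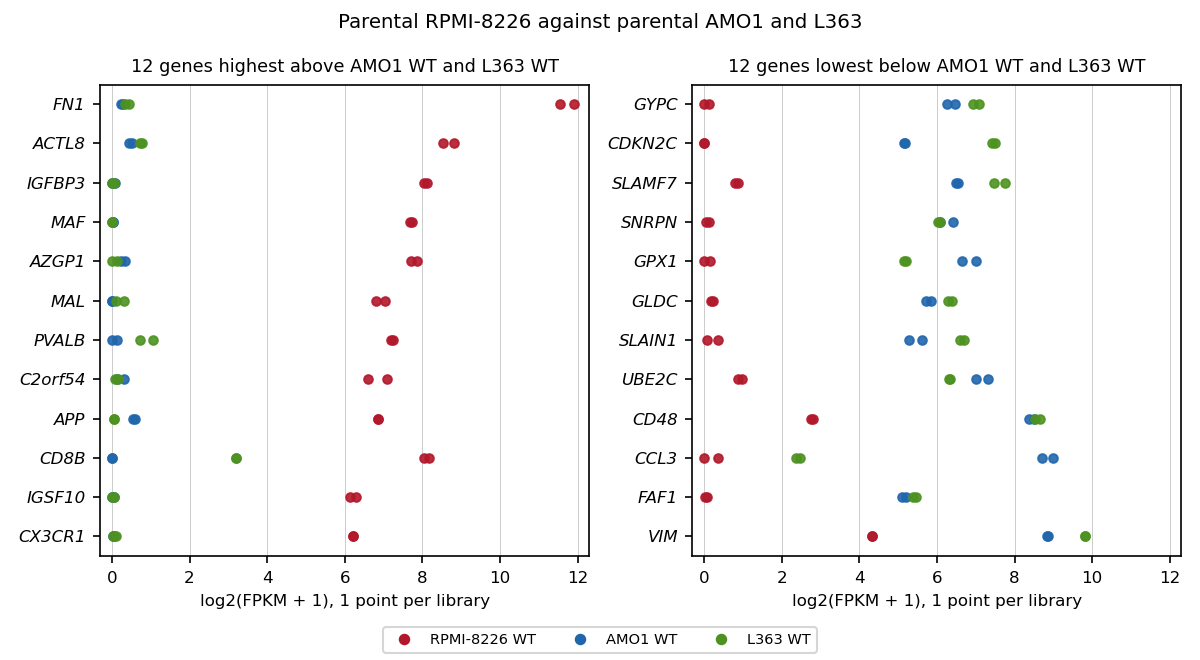
Level of the 12 genes with the largest log2 difference in each direction, as log2(FPKM + 1) on the x axis, with 1 point per library, red for RPMI-8226 WT, blue for AMO1 WT and green for L363 WT. The genes were picked so that both RPMI-8226 WT libraries lie beyond all 4 others. These libraries lie to the right in the left panel, from FN1 at 3005 and 3821 FPKM to CX3CR1 at 73.1 and 72.8. In the right panel they lie to the left.

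A stricter rule asked for at least 10 FPKM in both RPMI-8226 WT libraries and no more than 0.1 in all 4 others, and 36 genes met it. The 8 highest were IGFBP3, MAF, IGSF10, CX3CR1, G0S2, EPCAM, NCF4 and VPREB1. G0S2, an inhibitor of triglyceride lipase, stood at 57.6 and 56.7 FPKM and was listed at 0 in the 4 others. EPCAM, the epithelial cell adhesion molecule, stood at 56.2 and 56.5 FPKM, and NCF4, a cytosolic subunit of the phagocyte NADPH oxidase, at 54.2 and 53.3. VPREB1, which encodes part of the surrogate light chain of precursor B cells, stood at 52.3 and 51.7 FPKM and was listed at 0 in the others. Its partner IGLL1 stood at 1630.4 and 1391 FPKM in RPMI-8226 WT, 264 and 206 in L363 WT and 2.5 and 2.4 in AMO1 WT. IGLL1, which was chosen after its values were seen, resembles the lambda constant genes in sequence, so part of its reads could belong to them.

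MAF stood at 206 and 211 FPKM in RPMI-8226 WT, at 0.02 and 0.02 in AMO1 WT and was listed at 0 in both L363 WT libraries. Its log2 difference was 7.69 (SE 0.07, limma adjusted p = 6.72e-19). The 2 RPMI-8226 WT libraries were thus the only ones of the 6 in which MAF reached 1 FPKM. MAFA did not reach 1 FPKM in any of the 3 groups.

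Of the 11 listed MAF target genes, 5 were called higher in RPMI-8226 WT and 1 lower, which is 45.5% and 9.09% against 10.8% and 9.61% of all tested genes, with a median log2 difference of 0.97 against -0.09 over all tested genes. The targets fell into 2 patterns when the lines were read singly. ITGB7, CX3CR1 and SPP1 were called higher against both lines. ITGB7 stood at 1257 and 974 FPKM in RPMI-8226 WT, 40.4 and 72 in AMO1 WT and 131 and 113 in L363 WT. CX3CR1, the fractalkine receptor, stood at 73.1 and 72.8 FPKM against at most 0.07, and SPP1 at 67.7 and 55 against 1.74 and 0.18 in AMO1 WT and 0 in both L363 WT libraries. For these 3 genes no AMO1 WT or L363 WT library reached the lower of the RPMI-8226 WT pair, as was so for 27.1% of all tested genes.

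Other targets were shared between RPMI-8226 WT and L363 WT and low in AMO1 WT. CCR1, a receptor of inflammatory chemokines, stood at 68.5 and 61.5 FPKM in RPMI-8226 WT, 52.1 and 47.3 in L363 WT and 0.28 and 0.61 in AMO1 WT. RND3, a small GTPase, stood at 3.7 and 3.4 FPKM in RPMI-8226 WT, 4.18 and 4.12 in L363 WT and no more than 0.08 in AMO1 WT. DEPTOR, an inhibitor of mTOR, stood at 35.5 and 44 FPKM in RPMI-8226 WT, below the 106 and 102 in L363 WT and above the 5.39 and 6.62 in AMO1 WT. NUAK1, a kinase, stood at 1.43 and 1.87 FPKM in RPMI-8226 WT and 2.14 and 2.17 in L363 WT and was listed at 0 in AMO1 WT. The contrast with the average of the 2 lines left RND3, DEPTOR and NUAK1 uncalled, with log2 differences of 0.97, 0.58 and 0.57, although all 3 were called higher against AMO1 WT alone, RND3 at 2.12 and DEPTOR at 2.54. With a pseudocount of 0.1, RND3 and NUAK1 were called against the average too, at 2.21 and 1.87. NTRK2, a neurotrophin receptor, was high in L363 WT only, at 20.6 and 22.2 FPKM.

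CCND2, the cyclin D that MAF is known to raise, was at a like level in all 3 lines, with 56.5 and 62.5 FPKM in RPMI-8226 WT, 77 and 73.8 in AMO1 WT and 52.6 and 60.9 in L363 WT, and was not called at a log2 difference of -0.13 (SE 0.08). CCND1 was present in RPMI-8226 WT and AMO1 WT, at 11.8 and 12.2 FPKM in the first and 9.21 and 8.61 in the second, and at no more than 0.09 in L363 WT. MYC was high everywhere, at 249 and 240.1 FPKM in RPMI-8226 WT against 274 and 277 in AMO1 WT and 200.4 and 218 in L363 WT, with a log2 difference of 0.03. MYCL was the MYC relative called against both lines, at 3.79 and 3.54 FPKM against no more than 0.89. IRF4, a survival factor of plasma cells, was lower in RPMI-8226 WT, at 60.7 and 66.1 FPKM against 134 and 177 in AMO1 WT and 204 and 206 in L363 WT. FGFR3 did not reach 1 FPKM in any of the 3 groups.

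The APOBEC3 cytidine deaminases, whose mutation pattern is known from MAF-rearranged myeloma, differed in both directions. APOBEC3B stood at 117 and 128 FPKM in RPMI-8226 WT, 69.6 and 77.4 in L363 WT and 26.3 and 30.2 in AMO1 WT, and its log2 difference of 1.41 was called, though not against L363 WT on its own. APOBEC3G was called against both lines, at 38.9 and 40.4 FPKM against 5.74 and 8.53 in AMO1 WT and 0.32 and 0.34 in L363 WT. Of the 7 family members 2 were called higher and 2 lower, 28.6% each way against 10.8% and 9.61% of all tested genes. The lower ones were APOBEC3D and APOBEC3H. APOBEC3A and APOBEC3B are near copies over much of their length, so reads could be split between them.

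**Figure D2:**
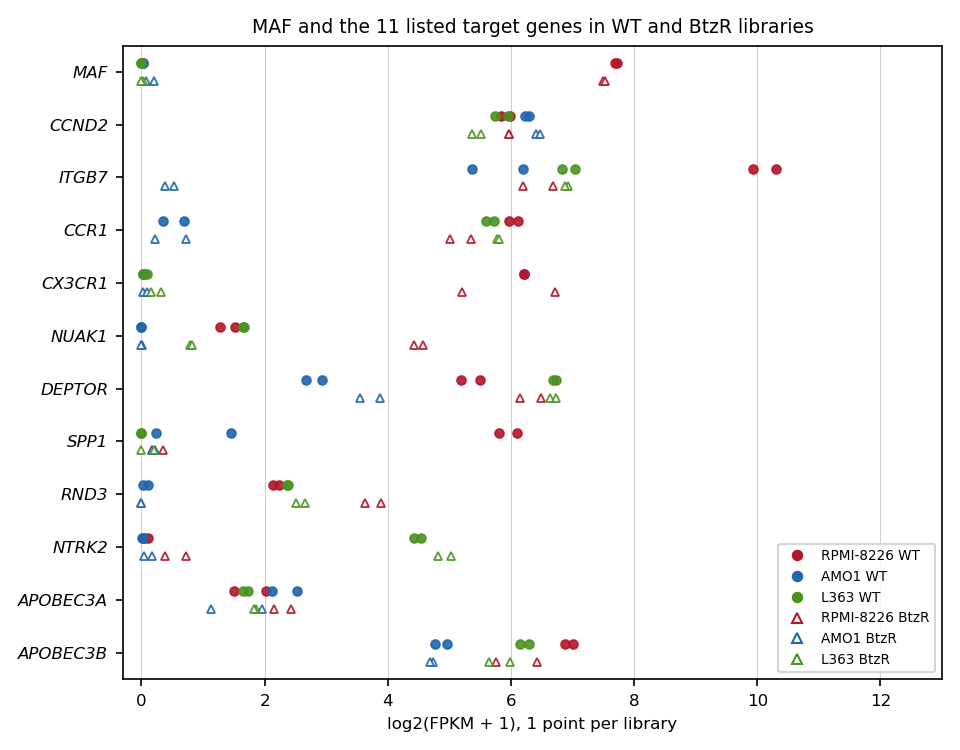
Level of MAF and the 11 listed target genes as log2(FPKM + 1) on the x axis, 1 point per library, with filled circles for WT and open triangles for BtzR libraries and 1 color per line. MAF is high in the 4 RPMI-8226 libraries alone, and CCR1, RND3 and DEPTOR lie higher in RPMI-8226 and L363 than in AMO1.

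The reverse of the strict rule, at most 0.1 FPKM in both RPMI-8226 WT libraries and at least 10 in all 4 others, was met by 5 genes, which were CDKN2C, GYPC, SNRPN, FAF1 and CACNG6. CDKN2C was listed at 0 in both RPMI-8226 WT libraries and stood at 35.5 and 34.5 FPKM in AMO1 WT and 181 and 169 in L363 WT. FAF1, a ubiquitin-binding factor named for its association with the death receptor FAS, stood at 0.02 and 0.06 FPKM against 36.1 and 33.4 in AMO1 WT and 43 and 40.5 in L363 WT. These are the 2 genes with the overlapping promoter windows printed above, and both were low in the same libraries. RNF11, the next tested gene past CDKN2C, stood at 18.2 and 19.7 FPKM in RPMI-8226 WT, above 9.84 and 10.6 in AMO1 WT and 14.3 and 14.2 in L363 WT, and was not called.

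GYPC, a glycoprotein of the red cell membrane that links to its skeleton, stood at 0 and 0.09 FPKM against 75.7 and 87.3 in AMO1 WT and 135 and 120.2 in L363 WT. SNRPN, an imprinted gene for a spliceosome protein, stood at 0.03 and 0.09 FPKM against 67 and 84.4 in AMO1 WT and 64.7 and 67.2 in L363 WT. CACNG6 was lower in level, between 11.2 and 18.8 FPKM in the other lines. Other genes among the 12 lowest were SLAMF7, GPX1, GLDC, SLAIN1, UBE2C, CD48, CCL3 and VIM. UBE2C, a ubiquitin-conjugating enzyme of mitotic exit, stood at 0.84 and 0.95 FPKM against 157 and 128 in AMO1 WT and 79.1 and 78.6 in L363 WT, while its fellow mitotic gene CCNB2 was higher in RPMI-8226 WT. VIM, the intermediate filament vimentin, stood at 19 and 19.2 FPKM against 466 and 458 in AMO1 WT and 893 and 899 in L363 WT. GLDC, the glycine decarboxylase of mitochondria, and CCL3, a chemokine, had log2 differences of -5.85 and -5.46.

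The label of a myeloma line was checked against markers. Of 18 plasma cell markers 16 reached 1 FPKM in each RPMI-8226 WT library, and the summed level was 4568 and 4189 FPKM, below the 7700 to 9996 FPKM of the other lines. JCHAIN, which joins polymeric immunoglobulin, stood at 2522 and 2282 FPKM, MZB1 at 717 and 654, XBP1, a driver of secretory capacity, at 246 and 248 and TNFRSF17, which encodes BCMA, at 94 and 98.1. Markers of mature B cells were low, with MS4A1 and PAX5 at no more than 0.14 FPKM in RPMI-8226 WT, and the B cell list summed to 34.9 and 33.6 FPKM, between the 79.6 to 85.2 of AMO1 WT and the 24.4 to 24.6 of L363 WT. T cell markers summed to 11.8 and 13 FPKM, with CD3D and GZMB listed at 0, against 97.3 to 117 in AMO1 WT and 10.2 to 11.1 in L363 WT. Myeloid markers, of which 10 of the 12 listed had values, summed to 23.8 and 19.5 FPKM against 5.16 to 11.9 in the 4 others. MPO, FCGR1A and CD163 were listed at 0. Only 2 myeloid markers were tested, and 1 of these was called higher, against both lines. The list of erythroid, epithelial and stromal markers summed to 153 and 152 FPKM, above the 6.05 to 12.9 of the other 4 libraries, and HBB and COL3A1 were listed at 0. In a culture, fewer cells with a transcript and less transcript per cell cannot be told apart.

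Of the 5 tested genes of that last list 3 were called higher, 60.0% against 10.8% of all tested genes. They were EPCAM, KRT18 and HBA1, and the first 2 made most of the sum. EPCAM stood at 56.2 and 56.5 FPKM and KRT18, a keratin of simple epithelia, at 87.2 and 86.4, against at most 1.09 FPKM in the AMO1 WT and L363 WT libraries. The part of other cells in these values was not tested. KRT8, the partner of KRT18, was not called, at 5.76 and 6.26 FPKM against 7.01 and 10.7 in AMO1 WT and 1.34 and 1.21 in L363 WT. COL1A1, COL3A1 and PECAM1 did not reach 1 FPKM in RPMI-8226 WT. Of 7 tested T and NK cell markers 28.6% were called each way, against 10.8% higher and 9.61% lower of all tested genes. CD5 and CD7 were called higher, CD5 at 2.85 and 3.55 FPKM and CD7 at 1.99 and 2.28. CD3E and CD4 were called lower, CD4 at 0.06 and 0.02 against 83.6 and 98.2 in AMO1 WT and 6.91 and 5.34 in L363 WT. Of 10 tested B cell markers 30.0% were called each way, CR2, CD72 and FCER2 higher and CD79B, SPIB and CIITA lower. FCER2, the low-affinity IgE receptor CD23, stood at 11.3 and 11.5 FPKM.

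Within the plasma cell list 7 of 18 markers were called lower in RPMI-8226 WT and 2 higher, 38.9% and 11.1%. Over all tested genes the shares were 9.61% and 10.8%, and the list had a median log2 difference of -0.63. The lower ones were SLAMF7, GPRC5D, SDC1, CCR10, IRF4, FCRL5 and PRDM1. CD138/SDC1, the syndecan used to isolate plasma cells, stood at 56.3 and 54.9 FPKM in RPMI-8226 WT, 3266 and 2883 in AMO1 WT and 231 and 217 in L363 WT. SLAMF7, the antibody target CS-1, stood at 0.74 and 0.82 FPKM against 91.9 and 88.6 in AMO1 WT and 216 and 175 in L363 WT, a log2 difference of -6.23 (SE 0.12, limma adjusted p = 1.99e-15). PRDM1, which encodes the plasma cell regulator BLIMP-1, stood at 11.3 and 12.7 FPKM against 22.5 and 30.2 in AMO1 WT and 34.4 and 34.1 in L363 WT. FCRL5 was low in L363 WT too, at 0.09 and 0.06 FPKM, so its call came from AMO1 WT. The 2 higher ones were CD38, at 45.6 and 56.7 FPKM against 12.6 and 15.9 in AMO1 WT and 17.4 and 16.3 in L363 WT, and SEC11C, a subunit of the signal peptidase, at 439.9 and 382.

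Antigens on the myeloma surface that are therapy targets or diagnostic markers differed in both directions, with 8 of 32 called higher and 11 lower. These were 25% and 34.4% against 10.8% and 9.61% of all tested genes, with a median log2 difference of -0.30. GPRC5D, a target of T cell engaging antibodies, stood at 4.16 and 2.6 FPKM against 102 and 104 in AMO1 WT and 59.1 and 51.4 in L363 WT. CD48, a ligand of the SLAM family, stood at 6.02 and 5.74 against 330.2 and 359 in AMO1 WT and 401 and 366 in L363 WT, and CCR10, the receptor of CCL27, at 2.5 and 2.07 against 14.7 and 18.4 in AMO1 WT and 55.6 and 47 in L363 WT. CD53, a tetraspanin, and CADM1, a cell adhesion molecule, were called lower against both lines, at log2 differences of -2.27 and -2.52. LILRB4, PTPRC and FCRL5 were called against AMO1 WT and not L363 WT, and CD74 the reverse. For PTPRC, which encodes CD45, L363 WT was low as well, at 0.97 and 1.11 FPKM beside 1.23 and 1.17 in RPMI-8226 WT.

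Among the antigens called higher, ITGB7 was the highest in level. CD33, the myeloid sialic acid receptor, stood at 12.6 and 11.7 FPKM against at most 0.26. EVI2B and EVI2A, which both lie inside an intron of NF1, were both called higher against each line, with EVI2B at 95.8 and 96.8 FPKM in RPMI-8226 WT, 17.7 and 24.7 in AMO1 WT and 2.28 and 2.96 in L363 WT. MUC1, a mucin, stood at 56.7 and 42.3 FPKM against 4.53 and 6.44 in AMO1 WT and 3.08 and 2.7 in L363 WT, and MME, which encodes CD10, at 4.42 and 4.25 against at most 0.76. NCAM1, which encodes CD56, stood at 11.2 and 12.4 FPKM, against 5.44 and 6.02 in AMO1 WT and no more than 0.06 in L363 WT. TNFRSF17, CD28, SELPLG, GGT1 and CD46 were among the 13 not called, and the log2 difference of TNFRSF17 was -0.31 (SE 0.12).

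HLA class II, which presents peptides to CD4 T cells, was the list with the lowest median. Of its 20 genes 13 were called lower in RPMI-8226 WT, 65.0% against 9.61% of all tested genes, and none higher. The 13 included 9 called against both lines, and the median log2 difference was -1.12 against -0.09 over all tested genes. CIITA, the transactivator of class II transcription, stood at 3.18 and 3.2 FPKM against 9.17 and 6.48 in AMO1 WT and 7.45 and 8.4 in L363 WT, while its partners RFX5, RFXAP and RFXANK were not called. HLA-DRA stood at 80.8 and 99.9 FPKM against 218 and 223 in AMO1 WT and 191 and 178 in L363 WT, HLA-DPA1 at 6.28 and 8.32 against 80.4 and 91.8 in AMO1 WT and 35.3 and 32.7 in L363 WT, and HLA-DQB1 at 1.01 and 1.46 against 51.7 and 56.8 in AMO1 WT and 52.1 and 46.2 in L363 WT. For these 3 genes no RPMI-8226 WT library reached any of the 4 others, as was so for 32.5% of all tested genes. Without replicate 1 of AMO1 WT the log2 difference of CIITA was -0.96 and no longer called. The HLA genes differ between people and resemble each other, so reads could be assigned differently in each line, and HLA-DRB3 and HLA-DRB5 are carried by some haplotypes only. With a pseudocount of 0.01 the log2 difference of HLA-DRB3 turned to 0.88 and was not called.

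Of 15 class I and peptide loading genes HLA-F alone was called, lower, 6.67% of the list against 9.61% of all tested genes. HLA-F stood at 3.06 and 2.53 FPKM against 29.2 and 29 in AMO1 WT and 8.61 and 6.29 in L363 WT. HLA-B and B2M, which encodes the shared light chain of class I, had log2 differences of 0.04 and -0.12. None of the 19 genes of the 20S proteasome, immunoproteasome and PA28 activator was called, against 20.4% of all tested genes in either direction. Their log2 differences lay between -0.59 for PSMA5 and 0.73 for PSMB1. PSMB5, the catalytic subunit that bortezomib binds, stood at 54.7 and 52.3 FPKM against 55.2 and 49.9 in AMO1 WT and 60.1 and 53 in L363 WT. Of 25 genes of ER folding and the unfolded protein response, SSR1 was called higher and HSP90B1 and SDF2L1 lower. These were 4.0% and 8.0% of the list, against 10.8% and 9.61% of all tested genes, with a list median of -0.33.

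**Figure D3:**
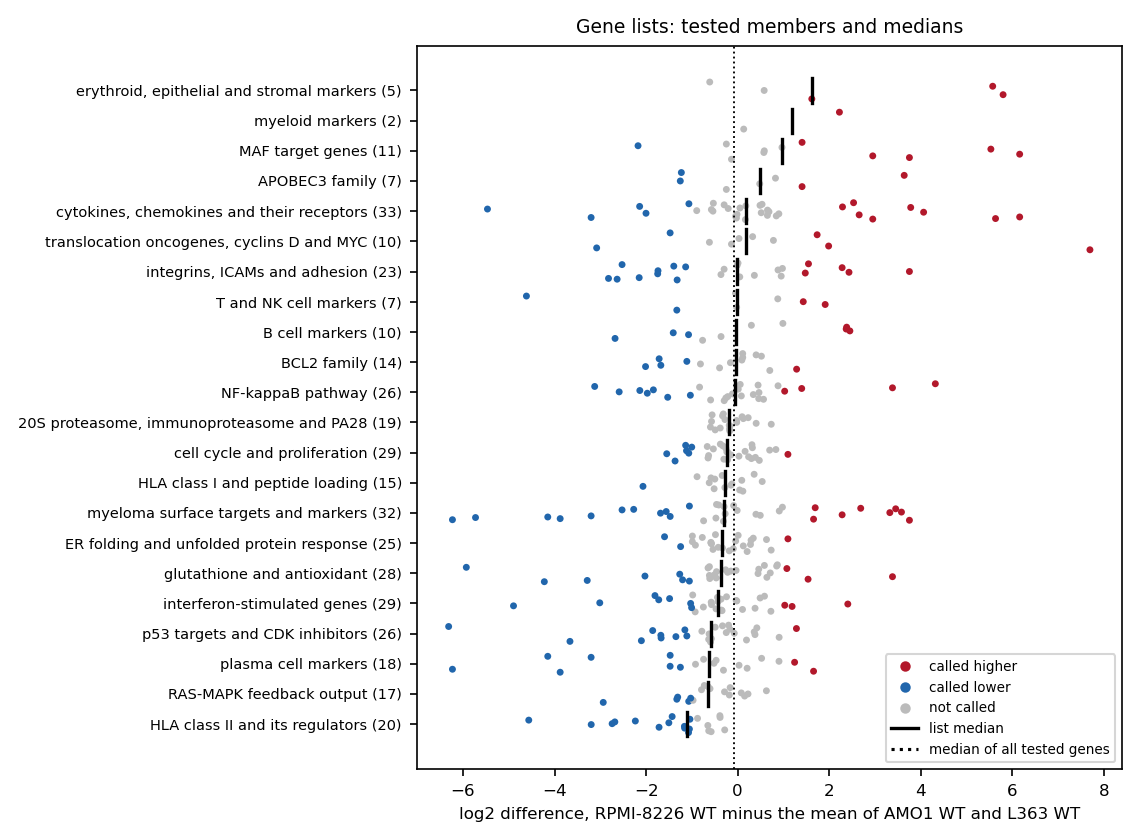
Log2 difference of RPMI-8226 WT from the average of AMO1 WT and L363 WT (x axis) for each tested member of the 22 gene lists (y axis, number tested in parentheses), red where called higher, blue where called lower and gray where not called. The black bar is the list median and the dotted line the median of all tested genes, -0.09, and HLA class II lies lowest with a median of -1.12.

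Genes of the NF-kappaB pathway, which many myeloma lines activate by mutation of its regulators, had 4 of 26 called higher and 7 lower, 15.4% and 26.9% against 10.8% and 9.61% of all tested genes, with a median log2 difference of -0.05 against -0.09. TRAF3, which holds the kinase NIK at a low level, stood at 1.12 and 1.15 FPKM in RPMI-8226 WT against 13.2 and 12.8 in AMO1 WT and 4 and 4.01 in L363 WT. Among genes that NF-kappaB is known to induce, BIRC3 stood at 4.47 and 4.82 FPKM against 29.4 and 25.3 in AMO1 WT and 34.5 and 45.6 in L363 WT, and TNFAIP3, which encodes the inhibitor A20, at 12.7 and 13.6 against 56.8 and 54.2 in AMO1 WT and 40.5 and 48.5 in L363 WT. MAP3K14, which encodes NIK, and NFKBIA were called lower against the average and not against AMO1 WT on its own. PLEK, TNFRSF18, CD40 and CYLD were higher, with PLEK at 53 and 60.1 FPKM against 2.73 and 3.64 in AMO1 WT and 5.64 and 7.04 in L363 WT and TNFRSF18 at 51.1 and 38.7 against 3.64 and 4.82 in AMO1 WT and 0 in L363 WT. The call of CYLD was lost without replicate 2 of AMO1 WT, at 0.99, or of RPMI-8226 WT, at 0.96. The subunits NFKB1, NFKB2, RELA, RELB and REL were not called, with log2 differences between -0.59 for NFKB2 and 0.57 for RELA.

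In the BCL2 family, 4 of 14 genes were called lower and 1 higher, 28.6% and 7.14% against 9.61% and 10.8% of all tested genes. The median was -0.03. MCL1, the survival factor on which most plasma cells depend, stood at 63.6 and 68.8 FPKM against 334 and 368 in AMO1 WT and 205 and 209.9 in L363 WT, a log2 difference of -2.01 (SE 0.10, limma adjusted p = 1.22e-10). BCL2L1, which encodes BCL-XL, was the higher one, at 45.1 and 45.3 FPKM against 14.1 and 12.6 in AMO1 WT and 24.4 and 23.6 in L363 WT. The death effector BAX stood at 24.8 and 24.3 FPKM against 115 and 121 in AMO1 WT and 55 and 55 in L363 WT, and BID at 7.98 and 6.65 against 26.7 and 27.4 in AMO1 WT and 25.3 and 25.4 in L363 WT. BCL2 itself was not called, at a log2 difference of 0.70.

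Of 26 p53 targets and CDK inhibitors 9 were called lower and 1, CDKN1C, higher. These were 34.6% and 3.85% against 9.61% and 10.8% of all tested genes, with a list median of -0.58. Only CDKN2C, CDKN1A and BAX were called lower against both lines. CDKN1A, which encodes p21, stood at 5.14 and 5.41 FPKM in RPMI-8226 WT, 174 and 179 in AMO1 WT and 32.8 and 36.5 in L363 WT. MDM2, which targets p53 for degradation, stood at 5.36 and 6.6 FPKM in RPMI-8226 WT and 7.03 and 7.67 in L363 WT, against 111 and 101 in AMO1 WT. PHLDA3 and GDF15 showed the same order, high in AMO1 WT and below 1 FPKM in both other lines. Their calls came from AMO1 WT being high.

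Of 29 cell cycle genes 22 were not called, CCNB2 was called higher and CCNE1, CCNE2, MKI67, CDK6, E2F1 and RRM2 lower. The calls made 3.45% and 20.7% against 10.8% and 9.61% of all tested genes, with a list median of -0.24. CCNE1, the cyclin of entry into S phase, was the member called lower against both lines, at 6.67 and 7.01 FPKM against 25.7 and 26.5 in AMO1 WT and 18.7 and 18 in L363 WT. The call of E2F1 was lost without replicate 1 of AMO1 WT, replicate 2 of L363 WT or replicate 2 of RPMI-8226 WT, at -0.989, -0.998 and -0.938, and that of CDK6 without replicate 1 of RPMI-8226 WT, at -0.91. CDK4 was not called, at 141 and 119.6 FPKM against 139 and 141 in AMO1 WT and 96.3 and 95.8 in L363 WT. Of 17 feedback genes of RAS-MAPK signaling 5 were called lower and none higher, 29.4% and 0% against 9.61% and 10.8% of all tested genes. The median was -0.65. DUSP4, a phosphatase of ERK, and SPRY1 were called against both lines, with DUSP4 at 0.46 and 0.44 FPKM against 5.66 and 4.87 in AMO1 WT and 17.8 and 19.7 in L363 WT.

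Of 23 adhesion molecules 5 were called higher and 9 lower, 21.7% and 39.1% against 10.8% and 9.61% of all tested genes. The median was -0.01. ITGA4, the alpha chain that pairs with ITGB1 and ITGB7, stood at 10.7 and 11.1 FPKM against 71.7 and 81.3 in AMO1 WT and 68.1 and 70.7 in L363 WT, and ITGB1 at 11.5 and 13.1 against 77 and 69 in AMO1 WT and 26.1 and 25.8 in L363 WT. Against these lower chains stood ITGB7 and ITGB5, the latter at 10.6 and 10.8 FPKM against 0.78 and 0.45 in AMO1 WT and 2.09 and 1.76 in L363 WT. ITGB7 stood above ITGB1 in all RPMI-8226 WT and L363 WT libraries by level per length, and in 1 of 2 AMO1 WT libraries. ITGA6, a laminin receptor chain, and ITGA3 were called lower against both lines, with ITGA6 at 0.16 and 0.2 FPKM against 12.1 and 10.7 in AMO1 WT and 5.04 and 4.23 in L363 WT.

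Of 33 cytokines, chemokines and receptors 8 were called higher and 5 lower, 24.2% and 15.2% against 10.8% and 9.61% of all tested genes. The median was 0.18. CCR2, a receptor of monocyte chemokines, stood at 49.2 and 51 FPKM against at most 0.06, and CSF2RB, the common beta chain of the GM-CSF, IL-3 and IL-5 receptors, at 31.7 and 30.5 against 0.02 and 0.06 in AMO1 WT and 2.54 and 2.57 in L363 WT. HGF, a myeloma growth factor, stood at 4.23 and 3.71 FPKM against at most 0.04, while its receptor MET was low, at 0.4 and 0.27. TNFSF13, which encodes APRIL, a ligand of BCMA, stood at 6.89 and 6.8 FPKM against at most 0.56. IL6R and CXCR4 were not called, with log2 differences of -0.05 and 0.17, and IL6 was listed at 0 in all 6 libraries. CXCL10 differed between the RPMI-8226 WT replicates, at 10.8 and 25.7 FPKM.

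Interferon-stimulated genes gave 3 called higher and 7 lower among 29 tested, 10.3% and 24.1% against 10.8% and 9.61% of all tested genes, with a median log2 difference of -0.43 against -0.09. IFITM1, a membrane protein that restricts viral entry, stood at 0.4 and 0.79 FPKM against 20.9 and 23.4 in AMO1 WT and 115 and 78.4 in L363 WT, and OAS2 at 2.05 and 2.4 against 17.2 and 17.6 in AMO1 WT and 38.1 and 33.5 in L363 WT. IRF9 and SAMD9 were the others called lower against both lines. Of 28 glutathione and antioxidant genes 7 were called lower and 3 higher, 25% and 10.7% against 9.61% and 10.8% of all tested genes. The median was -0.36. GPX1, a selenium enzyme that reduces peroxides, stood at 0 and 0.11 FPKM against 98.6 and 129 in AMO1 WT and 35.8 and 34.6 in L363 WT, while GPX4 was not called. GSTP1 was near 0 in L363 WT as well, at 0.06 and 0.24 FPKM, against 448 and 533 in AMO1 WT. MGST2 was called higher, at 10.1 and 8.78 FPKM against 0 in all 4 others, and so were PRDX1 and GSTT1. PRDX1 was at 0.98 and not called without replicate 1 of RPMI-8226 WT.

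The differences were also read along the chromosomes, with gene order from RefSeq. Among the autosomes the median log2 difference was lowest for chromosome 13, at -0.57 with 22.3% of 211 genes called lower, and highest for chromosome 16, at 0.33. Runs of at least 3 neighboring tested genes all called the same way against both lines numbered 31, with 23 higher and 8 lower, and held 109 genes. The lower runs included 6 HLA class II genes from HLA-DRA to HLA-DQA2. The higher runs included RGS1, RGS13 and RGS2 on chromosome 1, CXCL12, TMEM72, RASSF4 and DEPP1 on chromosome 10, and PCP4, DSCAM, BACE2, FAM3B and MX2 on chromosome 21. CXCL12, the ligand of CXCR4, stood at 8.4 and 10.6 FPKM and was listed at 0 in the 4 others.

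Chromosome 22 held 4 of the 8 lower runs, all before IGLL5. The 57 tested genes before IGLL5 had a median log2 difference of -1.23, with 53 below 0, 40 called lower and 2 called higher, and the 255 after it a median of 0.21. The 2 called higher were GSTT1 and VPREB1. LOC391322 and GSTT1 came first in the gene order, ahead of IL17RA, and their placement was not checked. Taken over the nearest 20 genes, the medians were -1.31 before and 0.16 after IGLL5. The median before IGLL5 was -1.22 and -1.28 in the RPMI-8226 WT replicates taken singly, and -1.20 and -1.35 against AMO1 WT and L363 WT. CRKL, an adaptor of signaling kinases, stood at 5.79 and 6.15 FPKM against 22 and 20.4 in AMO1 WT and 17.4 and 20.3 in L363 WT, and UBE2L3, a ubiquitin-conjugating enzyme, at 22 and 19.2 against 63.2 and 61.2 in AMO1 WT and 68 and 65.2 in L363 WT. The 4 runs also held BID, LZTR1, RANBP1 and SDF2L1. IGLL5 lies inside the immunoglobulin lambda locus and shares exons with a lambda light chain, and was listed at 11564 and 9645 FPKM in RPMI-8226 WT, 27962 and 23549 in L363 WT and 250.5 and 259.8 in AMO1 WT.

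On chromosome 16 the median changed sign at MAF. The 515 tested genes before MAF had a median log2 difference of 0.38, with 91 below 0, and the 74 after it a median of -0.44, with 55 below 0. Taken over the nearest 20 genes, the medians were 0.43 before and -0.56 after MAF. WWOX, a tumor suppressor that is the gene just before MAF, stood at 9.89 and 9.67 FPKM in RPMI-8226 WT against 4.91 and 2.64 in AMO1 WT and 3.21 and 3.57 in L363 WT, and CMC2, beyond MAF, at 24.8 and 22.6 against 54.1 and 56.1 in AMO1 WT and 45.1 and 43.4 in L363 WT. CMC2 was at -0.97 and no longer called without replicate 2 of RPMI-8226 WT. IGLL5, WWOX and CMC2 and the 2 dividing positions were chosen after the values were seen, so these are descriptions without a test. The part of copy number in them was not tested.

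**Figure D4:**
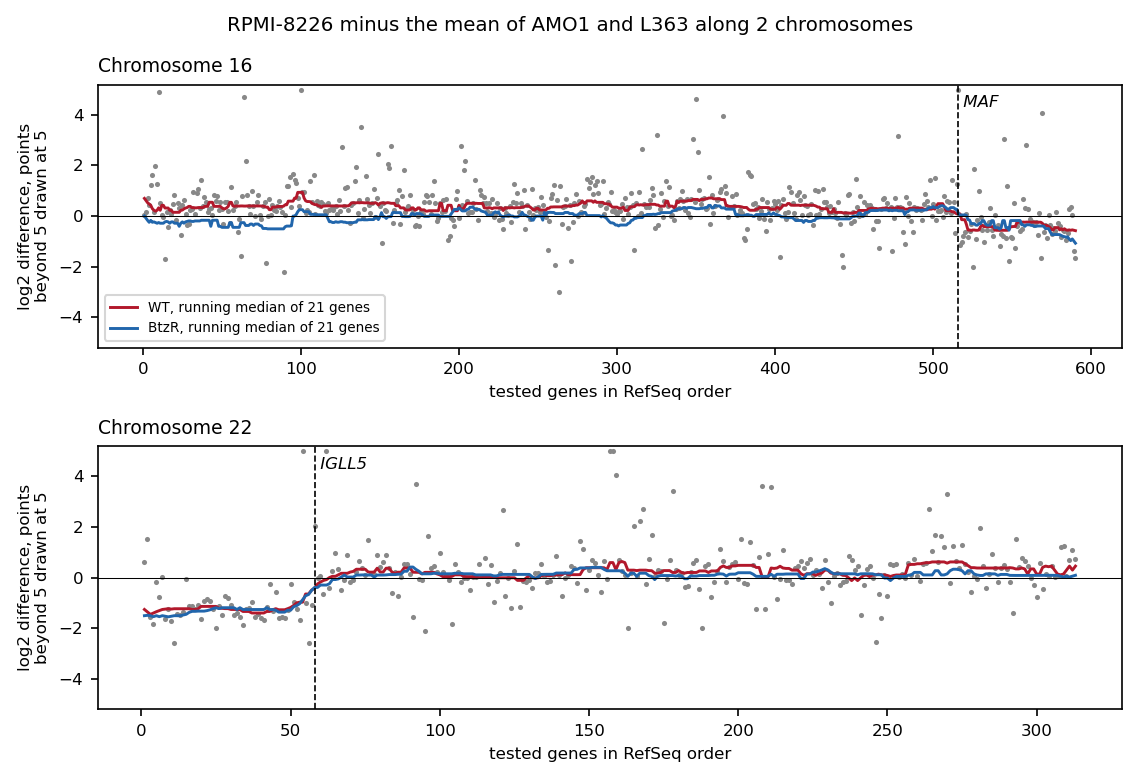
Log2 difference of RPMI-8226 from the average of AMO1 and L363 (y axis) against the order of tested genes along chromosomes 16 and 22 (x axis), with 1 gray point per gene in WT, a red running median of 21 genes in WT and a blue one in BtzR. The running medians lie near -1.2 before IGLL5 and near 0.2 after it on chromosome 22, and change sign at MAF on chromosome 16 in WT.

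The same difference between lines was then read in the BtzR libraries, whose levels do not enter the WT difference, although all 20 libraries share the estimate of the spread. There 1165 genes, 10.1% of those tested, were called higher in RPMI-8226 BtzR and 1217, 10.5%, lower. Of the 833 genes called higher against both WT lines 423 were called higher in BtzR, which is 50.8% of the WT genes and 36.3% of the BtzR genes. Of the 565 called lower 352 were called lower in BtzR, 62.3% of the WT genes and 28.9% of the BtzR genes. In the opposite direction, 23 and 10 of them were called. Of the 36 genes exclusive to RPMI-8226 WT 22 were called higher in BtzR, and all 5 of the reverse kind were called lower.

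MAF stood near its WT level in RPMI-8226 BtzR, at 179 and 183 FPKM against at most 0.15 in the BtzR libraries of the other lines. EPCAM, KRT18 and IGSF10 were again called higher, with EPCAM at 68.1 and 58.1 FPKM. CDKN2C was again listed at 0 in both RPMI-8226 libraries and stood at 30.5 and 27.9 FPKM in AMO1 BtzR and 183 and 161 in L363 BtzR, and FAF1, GYPC and SNRPN stood at no more than 0.11 FPKM in them, UBE2C at 1.4 and 1.17. The medians of the genes before IGLL5 on chromosome 22 and after MAF on chromosome 16 were -1.33 and -0.47 in BtzR. The median before MAF was 0.004 there, against 0.38 in WT.

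Other genes called higher in WT were not called in BtzR. Among them SPP1 stood at 0.12 and 0.27 FPKM in RPMI-8226 BtzR, MAL at 0.07 and 0 and CCR2 at 0.04 and 0.07. FN1 was still called higher, at 36.7 and 96.4 FPKM against at most 1.08 in the other BtzR lines, but far below its WT level. Among MAF targets ITGB7 stood at 72.3 and 102 FPKM in RPMI-8226 BtzR, below the 121 and 117 in L363 BtzR, and NUAK1 at 22.8 and 20.5. HLA class II gave 14 of 20 genes called lower in RPMI-8226 BtzR, with a median log2 difference of -3.91, and HLA-DRA stood at 0.35 and 0.85 FPKM against 1803 and 1688 in AMO1 BtzR and 70.0 and 98 in L363 BtzR. CD38 stood at 2.43 and 3.02 and TNFRSF17 at 7.86 and 4.93 FPKM in RPMI-8226 BtzR, and both were called lower than in the other BtzR lines. SLAMF7 and SDC1 were low in RPMI-8226 under both conditions, SLAMF7 at 0.27 and 0.41 FPKM and SDC1 at 67.8 and 38.2 in BtzR.

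Whether a line difference changed with resistance was tested as an interaction, and 1739 genes were called, 15.0% of those tested, with 6.4% toward higher and 8.65% toward lower values in BtzR. The interaction shares the WT libraries with the WT comparison, so no direction is read from the genes both call. PVALB and CD8B, high in RPMI-8226 WT, were called higher in RPMI-8226 BtzR too, PVALB at 289.7 and 194 FPKM and CD8B at 127 and 82. The interaction of MAF was -0.26 and was not called.

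**Figure D5:**
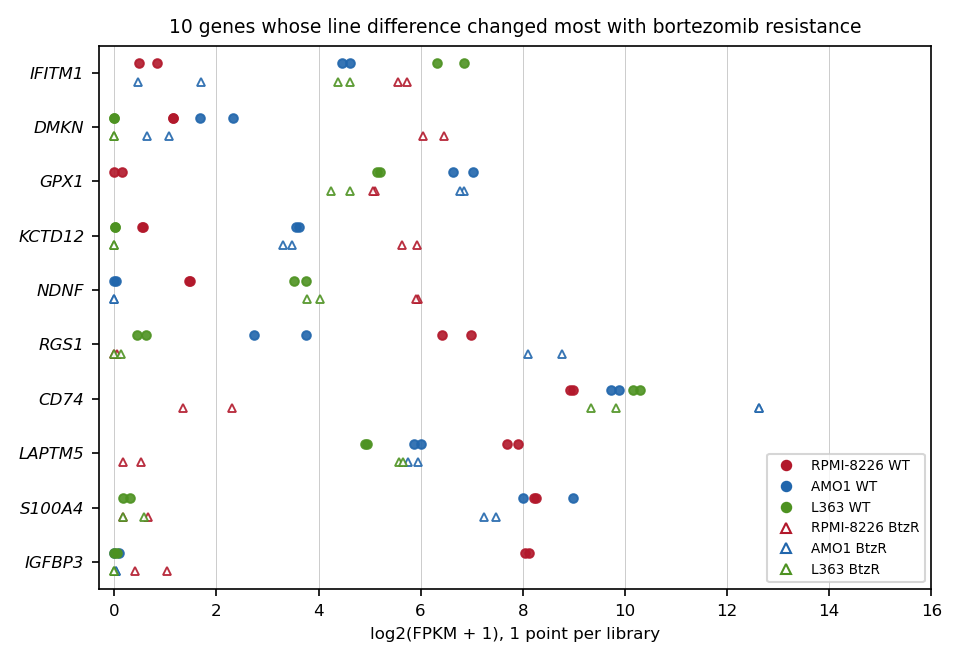
Level of the 10 genes with the largest called interaction values, 5 in each direction, as log2(FPKM + 1) on the x axis, 1 point per library, with filled circles for WT and open triangles for BtzR. CD74, LAPTM5 and RGS1 lie near 0 to 2.3 in the RPMI-8226 BtzR libraries, while IFITM1, DMKN, KCTD12 and NDNF lie higher there than in RPMI-8226 WT.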

How the data were processed

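RNA of cultured cells was sequenced in 20 libraries, 2 biological replicates for each of 10 groups. The authors deposited 1 table of FPKM values per gene, and the submitters' processing notes name HISAT2 2.0.4, Bowtie2 2.2.5 and RSEM 1.2.12. The genome build is not given in the sources used here, and gene positions came from RefSeq by gene identifier. Values were taken as log2(FPKM + 1). Autosomal genes with a mean of at least 1 FPKM in any of the 3 WT groups were tested with limma 3.58.1 in R 4.3.3, with 10 group means, 10 residual degrees of freedom and a mean-variance trend, and Benjamini-Hochberg adjustment over all 11555 genes. Tables and plots were made with Python 3.11.15 and matplotlib 3.10.9. Since an exact permutation test of 2 against 4 libraries cannot go below a two-sided p of 0.0667, none was made. The p-values rest on the spread between replicate cultures within a group, pooled over all 10 groups. They do not measure the spread between myeloma lines.

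Genes were named by rule, namely the 12 largest differences in each direction called against both lines with no overlap, the 8 highest genes exclusive to RPMI-8226 WT, members of the gene lists, neighbors called together and the 5 largest interactions in each direction. The members and lists were chosen with earlier results of these data known. On simulated data the fit of RPMI-8226 WT against the average of AMO1 WT and L363 WT recovered 196 of 200 genes changed by a log2 value of 2. It called 0 unchanged genes among 10952 tested. The changed genes were drawn from those averaging at least 10 FPKM, and unchanged genes were set to no difference from the average. Recovery of lower genes and calls of small true differences were therefore not examined. Some genes are not reported here. Alternatives were another pseudocount, filter, scaling or trend, a replicate block, the compared libraries alone, all chromosomes, no fold threshold and leaving out each replicate.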

Additional observations from a re-analysis of the deposited data

Results flagged for a closer look

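The difference between RPMI-8226 and the average of AMO1 and L363 was larger or smaller in BtzR than in WT cells for 1739 genes by limma's test of the interaction, 740 with a higher and 999 with a lower value in BtzR. Of these genes the 5 of largest size in each direction are given. Toward higher values they were IFITM1 at 7.74, DMKN at 5.67, GPX1 at 5.40, KCTD12 at 5.33 and NDNF at 4.32 on the log2 scale. Toward lower values they were RGS1 at -9.03, CD74 at -8.23, LAPTM5 at -7.75, S100A4 at -7.34 and IGFBP3 at -7.33.

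IFITM1 stood at 0.4 and 0.79 FPKM in RPMI-8226 WT and 46 and 51.9 in RPMI-8226 BtzR, while L363 went from 115 and 78.4 to 23.5 and 19.9. GPX1 stood at 0 and 0.11 FPKM in RPMI-8226 WT and 33.6 and 32.6 in RPMI-8226 BtzR. CD74, the invariant chain of HLA class II, stood at 507 and 487 FPKM in RPMI-8226 WT and 1.55 and 3.92 in BtzR. In AMO1 it stood at 851 and 938 in WT and 6328 and 6320.3 in BtzR. In L363 it stood at 1248 and 1138 in WT and had a lower mean in BtzR. BtzR thus stood below WT in RPMI-8226 and L363 and above it in AMO1 alone. RGS1, a regulator of G protein signaling, stood at 84 and 125 FPKM in RPMI-8226 WT and 0 and 0.04 in RPMI-8226 BtzR. In AMO1 it stood at 5.66 and 12.5 in WT and 435 and 273 in BtzR. In L363 it stood at 0.53 and 0.37 in WT and had no higher mean in BtzR. LAPTM5, a lysosomal membrane protein of blood cells, stood at 237 and 206 FPKM in RPMI-8226 WT and 0.13 and 0.44 in BtzR.

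DMKN, KCTD12 and NDNF were below 2 FPKM in RPMI-8226 WT and higher in RPMI-8226 BtzR, DMKN at 64.9 and 87.3 FPKM, KCTD12 at 59.7 and 48.4 and NDNF at 60.4 and 58.8. The interaction and the WT difference share the WT libraries, so the levels above are given as values and opposite signs are not read as a result.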

How the results depend on the processing

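The counts of called genes were recomputed under each alternative. Leaving out 1 replicate gave 1221 to 1282 genes higher and 1111 to 1146 lower against the average, 810 to 856 higher and 565 to 574 lower against both lines, 2363 to 2513 called in BtzR and 1719 to 1822 in the interaction. With no fold threshold the counts were 3665, 4634, 2385, 2799, 8221 and 6113 in the same order, and the share of calls that were higher went from 52.9% to 44.2%. The genes lower than both lines numbered 863 with a pseudocount of 0.1 and 921 with 0.01, against 565, and those higher than both numbered 554 with a filter of 5 FPKM, against 833. The other settings left every count within 1.5 times its main value, among them 1 chosen after seeing the data, which left out the libraries labelled AMO1 CfzR. A replicate block gave 1247, 1110, 835, 565, 2382 and 1742 genes. Whether the replicate numbers paired the lines was not settled. The deviations of same-numbered libraries correlated at 0.139 for RPMI-8226 and AMO1, 0.099 for RPMI-8226 and L363 and -0.02 for AMO1 and L363. No reference was at hand for the size that a shared batch would give. Of 190 named genes, KCTD12 and HLA-DRB3 turned from called log2 differences of -1.26 and -1.16 to 0.000284 and 0.88 with a pseudocount of 0.01, and were -0.98 and -0.28 with 0.1, with no call. CD74, CCNE2, CMC2 and E2F1 fell under the fold threshold with quantile normalization, at -0.97, -0.99, -0.99 and -0.93. CD3E was not called with a pseudocount of 0.01, at -1.44. In all, 18 recomputed values of named genes lost a call, 14 gained one, 2 reversed and 3179 kept both direction and call. The cause was not tested. Depth was unknown, so low values could not be given a counting error.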
